A study of Mus musculus with 17 samples.

Results

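The genes described here encode 10 cytokine receptor chains that divide blood progenitors between myeloid and lymphoid signals: the CSF receptors Csf1r, Csf2ra, Csf2rb and Csf3r, the IL-2, IL-7 and IL-15 receptor chains Il2ra, Il2rb, Il2rg, Il7r and Il15ra, and the IL-6 receptor Il6ra. They were taken by gene symbol from the array's platform annotation, a rule that uses no measured value, but the genes were listed with earlier results of these data known. Of the 10 genes, 7 had at least 1 probe set that the annotation gives exactly that symbol, with 14 probe sets in all. All 7 measured genes passed the filter on low values and were among the 11629 genes tested, out of 17097 genes with a named probe set. Csf2ra, Il7r and Il2rg were not analysed here. Where a gene had several probe sets, that of highest mean over the 17 arrays stands for it.

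The study transformed progenitors of C57/Bl6 wildtype donor mice with Myc and Bcl2 and passed them into irradiated recipients, which developed leukemia. Recipients were 4 to 8 weeks old and had received 4.5 to 6 Gy of total body irradiation. The leukemias grew out of DN2 cells, a thymic T-cell progenitor stage (5 arrays), of LSK cells, a marrow population enriched for stem cells (3 arrays), and of granulocyte-macrophage progenitors, GMP (5 arrays). Their labels name myeloid spleen cells, which the series text describes as sorted for CD11b and Gr1 and against CD3, CD4 and CD8. The healthy groups are DN2 cells of the thymus (2 arrays) and GMP of the marrow (2 arrays), whose labels name no oncogene and give no age. All 3 leukemia groups carry both oncogenes, and the labels name no leukemia without them and no healthy LSK cells. Nothing in the labels says that replicates are separate mice, so p-values measure only the spread between these samples, which may be technical.

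Cytokine receptors are assembled from chains that bind the ligand and chains that signal. Csf1r is the receptor tyrosine kinase of macrophage colony-stimulating factor, Csf3r is the receptor of granulocyte colony-stimulating factor, and Csf2rb is the signalling chain shared by GM-CSF, IL-3 and IL-5. Il2rb, known as CD122, is the signalling chain shared by IL-2 and IL-15 and is carried by NK cells and memory T cells. Il2ra, known as CD25, raises the affinity for IL-2 and is part of the usual surface definition of DN2 cells. Il15ra holds IL-15 and presents it to neighbouring cells that carry Il2rb, and Il6ra binds IL-6 and signals through gp130, the product of Il6st. Most of these receptors signal through Jak kinases and Stat factors.

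Values are log2 expression values, and the median of all values, 3.83, is close to background, so a difference against a group near it is compressed. Array medians ran from 3.80 to 3.86. The surface markers of the sort did not all follow the labels. Itgam, which encodes CD11b, was 7.17, 3.47, 7.38, 3.24 and 3.42 in the arrays labelled DN2 leukemia, against 8.99 to 10.03 in LSK leukemia arrays and 8.06 to 9.95 in GMP leukemia arrays. Cd3e, part of the CD3 protein that the sort selects against, was 7.79 to 9.06 in the arrays labelled DN2 leukemia and 4.997 to 5.56 in all other arrays, so these arrays are called DN2-labelled throughout. Mycn was 4.91 and 4.22 in LSK leukemia arrays 2 and 3 and 11.59 to 13.15 in every other leukemia array, against 3.96 to 4.58 in healthy arrays. The labels name Myc and not Mycn. In bulk samples such as these, fewer cells of a type and less RNA per cell cannot be told apart.

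Among the CSF receptors, Csf3r and Csf2rb separated the DN2-labelled leukemias from both other leukemias in every array, and Csf1r separated the LSK leukemias from all others. Csf3r marks the neutrophil line and was low in DN2-labelled leukemia. Its values were 5.40, 4.96, 5.15, 4.50 and 4.38 in DN2-labelled leukemia, 8.47, 11.47 and 11.81 in LSK leukemia, and 11.17, 9.52, 11.20, 9.45 and 11.31 in GMP leukemia. Healthy DN2 had 4.68 and 4.69, and healthy GMP 8.98 and 9.44. All 5 DN2-labelled arrays lay below every LSK, GMP leukemia and healthy GMP array, and they overlapped the range of healthy DN2. The log2 difference of Csf3r, DN2-labelled minus GMP leukemia, was −5.65 ± 0.56 (SE, limma adjusted p = 1.41e-06, 5 against 5 arrays).

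Csf3r lies on chromosome 4 and Il6ra on chromosome 3 of the mouse assembly GRCm38.p6. They showed the closest pattern of any pair of the measured genes, with a Pearson r of 0.95 over the 17 arrays. That r is a description: the arrays fall into 5 groups and are not independent points, and no p is given. Their RefSeq promoter windows, 250 bases before to 50 after the gene's start, are shown for this reason, 5′ to 3′ on the gene's own strand. Capitals mark a match, on either strand, to a motif searched for.
Csf3r: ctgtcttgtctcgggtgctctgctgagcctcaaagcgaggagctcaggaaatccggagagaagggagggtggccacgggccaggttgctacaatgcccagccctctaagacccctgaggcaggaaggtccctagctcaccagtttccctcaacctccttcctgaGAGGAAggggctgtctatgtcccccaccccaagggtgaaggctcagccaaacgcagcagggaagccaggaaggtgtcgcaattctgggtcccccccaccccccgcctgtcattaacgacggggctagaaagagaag
Il6ra: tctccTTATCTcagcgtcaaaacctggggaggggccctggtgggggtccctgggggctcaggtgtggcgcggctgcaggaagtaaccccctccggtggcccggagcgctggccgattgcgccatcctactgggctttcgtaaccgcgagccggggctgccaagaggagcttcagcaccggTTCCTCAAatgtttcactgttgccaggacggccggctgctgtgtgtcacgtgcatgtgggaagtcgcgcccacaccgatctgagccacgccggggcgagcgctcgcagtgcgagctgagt
The Csf3r window is chr4:126024409-126024708 on the plus strand, and the Il6ra window is chr3:89913147-89913446 on the minus strand. Motifs of 6 factor families were searched on both strands of 32851 promoters. The PU.1-type ETS motif GAGGAA was held by 28.3% of them, the C/EBP motif TTGNNNAA by 36.7% and the RUNX motif TGTGGT by 16.8%. The STAT motif TTCNNNGAA was held by 8.30%, the GATA motif AGATAA by 11.2% and the T-box motif GGTGTGA by 3.98%. Csf3r holds GAGGAA at −86 from the start. Il6ra holds GAGGAA at −70 on the opposite strand, where it overlaps a TTGNNNAA match beginning at the same base, and AGATAA at −245. A match describes the letters only.

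Csf2rb was likewise near background in 4 of 5 DN2-labelled leukemias. Its values were 6.90, 3.76, 3.98, 3.93 and 3.30 in DN2-labelled leukemia, 9.90, 10.80 and 11.05 in LSK leukemia, and 9.99, 10.72, 10.14, 9.91 and 10.00 in GMP leukemia. Healthy DN2 had 5.87 and 5.49, and healthy GMP 9.63 and 9.60. The first DN2-labelled array stood alone above healthy DN2, and the other 4 lay below both healthy DN2 arrays. The DN2-labelled minus GMP leukemia difference of Csf2rb was −5.78 ± 0.52 (SE, limma adjusted p = 4.62e-07). Its other probe sets gave −4.42 ± 0.32 and −0.63 ± 0.18 (SE), the last at a probe set whose values stay between 3.70 and 5.37 on all arrays. Csf2rb has a close paralog, Csf2rb2, and probes of one may also bind transcripts of the other. The same difference of Csf2rb2 was −2.17 ± 0.24 (SE, limma adjusted p = 4.6e-06).

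Csf1r, a marker of monocytes and macrophages, was highest in LSK leukemia. Its values were 6.47, 4.45, 4.76, 4.89 and 4.65 in DN2-labelled leukemia, 9.03, 10.60 and 9.71 in LSK leukemia, and 5.75, 5.64, 5.75, 6.45 and 6.74 in GMP leukemia. Healthy DN2 had 4.67 and 4.39, and healthy GMP 6.63 and 6.15. The 3 LSK arrays lay above all other arrays, while the first DN2-labelled array fell within the GMP leukemia range. Csf1r was 3.72 ± 0.44 higher in LSK than in GMP leukemia (SE, limma adjusted p = 5.38e-05), and without LSK arrays 2 and 3 the difference was 2.97 ± 0.62 (adjusted p = 0.00811). That setting leaves 1 LSK array, so its SE and p rest on the spread within the other groups. Its DN2-labelled against GMP leukemia difference, −1.02 ± 0.38 (SE, limma adjusted p = 0.0445), was lost under most alternatives, with adjusted p up to 0.111.

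Il6ra followed the CSF receptors. Its values were 6.44, 5.24, 3.11, 4.34 and 3.42 in DN2-labelled leukemia, 7.48, 10.08 and 9.61 in LSK leukemia, and 9.55, 8.28, 8.71, 7.48 and 8.47 in GMP leukemia. Healthy DN2 had 3.84 and 3.38, and healthy GMP 7.69 and 7.40. All DN2-labelled arrays lay below all LSK, GMP leukemia and healthy GMP arrays. The DN2-labelled minus GMP leukemia difference of Il6ra was −3.99 ± 0.62 (SE, limma adjusted p = 0.000115). At its dimmer probe set the difference was −0.71 ± 0.23 (SE, limma adjusted p = 0.0243).

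**Figure D1:**
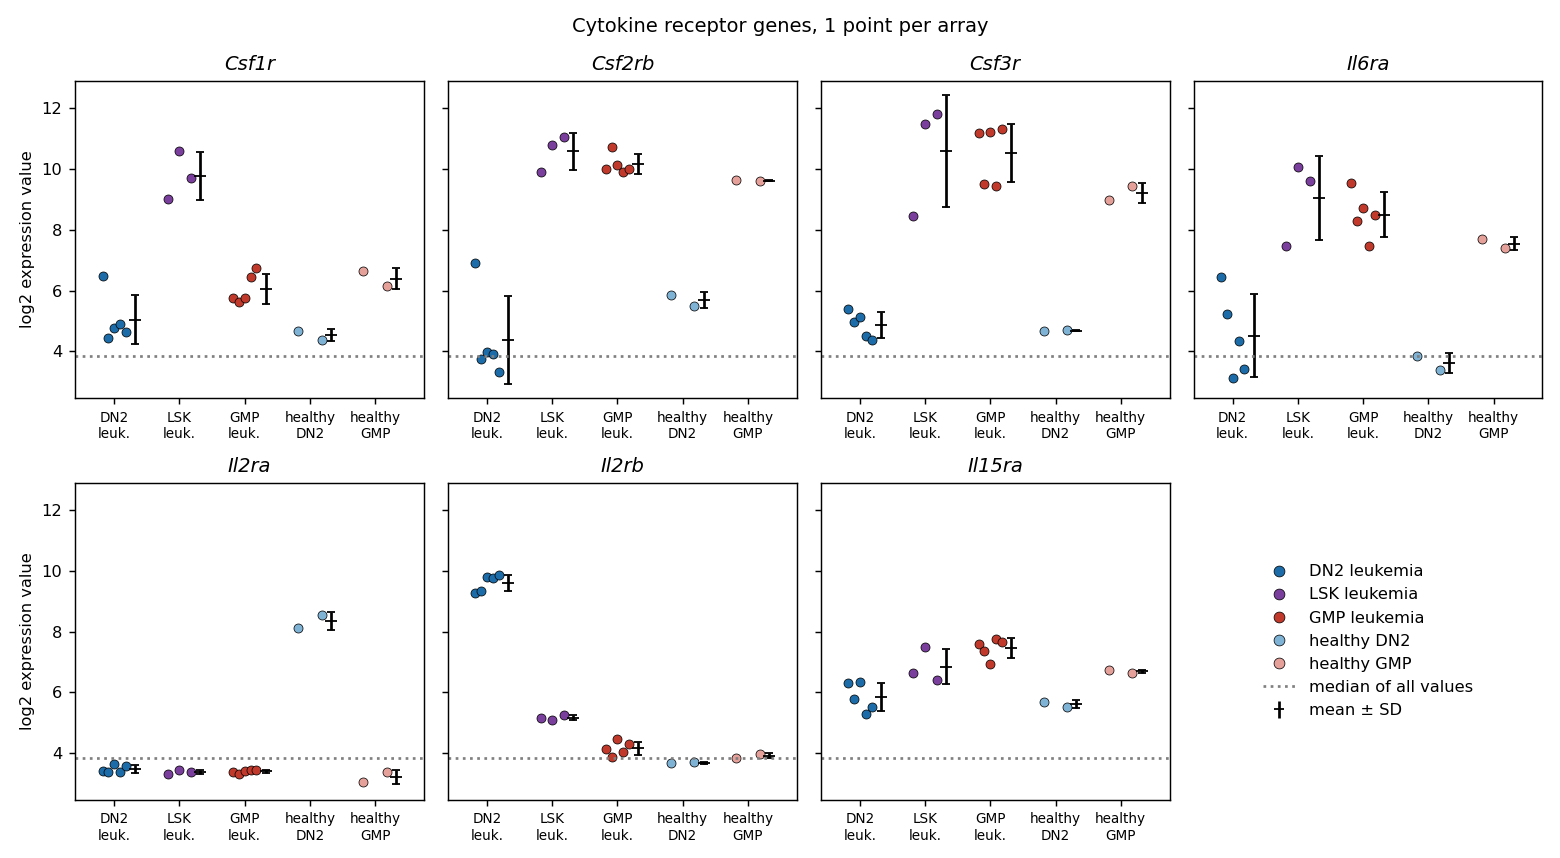
Each panel plots the log2 expression value of 1 receptor gene (vertical axis) in the 5 groups (horizontal axis), with 1 point per array, the mean and SD beside the points, and a dotted line at the median of all values. Csf2rb, Csf3r and Il6ra are low in DN2-labelled leukemia and healthy DN2, Il2rb is high in DN2-labelled leukemia alone, and Il2ra in healthy DN2 alone.

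Il2rb showed the opposite pattern, and its level set DN2-labelled leukemia apart from every other group. Its values were 9.27, 9.34, 9.78, 9.75 and 9.87 in DN2-labelled leukemia, 5.16, 5.08 and 5.25 in LSK leukemia, and 4.13, 3.87, 4.45, 4.02 and 4.28 in GMP leukemia. Healthy DN2 had 3.66 and 3.71, and healthy GMP 3.85 and 3.97. All 5 DN2-labelled arrays lay above every array of the other groups, whose highest value was 5.25, and healthy DN2 was near background. Il2rb was 5.45 ± 0.14 higher in DN2-labelled than in GMP leukemia (SE, limma adjusted p = 7.03e-13), and 3.43 ± 0.14 and 6.77 ± 0.26 higher at its other probe sets. Against healthy DN2 it was 5.92 ± 0.19 higher (SE, limma adjusted p = 6.08e-12, 5 against 2 arrays). LSK leukemia exceeded GMP leukemia by 1.01 ± 0.17 (SE, limma adjusted p = 0.000586), but its other probe sets gave 0.28 ± 0.17 (adjusted p = 0.245) and 2.83 ± 0.30 (adjusted p = 2.93e-05).

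Il2ra was present in healthy DN2 and near background everywhere else. Its values were 3.40, 3.37, 3.63, 3.37 and 3.58 in DN2-labelled leukemia, 3.30, 3.44 and 3.38 in LSK leukemia, and 3.36, 3.31, 3.42, 3.45 and 3.45 in GMP leukemia. Healthy DN2 had 8.13 and 8.55, and healthy GMP 3.04 and 3.38. High Il2ra in healthy DN2 follows from how DN2 cells are usually defined and is no finding. The DN2-labelled leukemia minus healthy DN2 difference of Il2ra was −4.87 ± 0.15 (SE, limma adjusted p = 4.2e-12), and −7.47 ± 0.13 at its other probe set. DN2-labelled and GMP leukemia arrays overlapped, with a difference of 0.07 ± 0.11 (SE, limma adjusted p = 0.659). The promoter window of Il2ra is shown because this chain and Il2rb moved in opposite directions between DN2-labelled leukemia and healthy DN2.
Il2ra: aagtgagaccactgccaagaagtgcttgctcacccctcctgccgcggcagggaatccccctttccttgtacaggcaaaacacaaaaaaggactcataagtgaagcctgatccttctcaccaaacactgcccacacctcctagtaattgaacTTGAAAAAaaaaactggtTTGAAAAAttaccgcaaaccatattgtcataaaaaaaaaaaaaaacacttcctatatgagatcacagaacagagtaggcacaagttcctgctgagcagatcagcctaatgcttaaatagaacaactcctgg
This window is chr2:11642542-11642841 on the plus strand of GRCm38.p6, and its capitals mark TTGNNNAA matches at −99 and −81. The other motifs had no match in these letters.

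Il15ra moved with the myeloid receptors rather than with Il2rb. Its values were 6.31, 5.78, 6.33, 5.29 and 5.52 in DN2-labelled leukemia, 6.62, 7.49 and 6.41 in LSK leukemia, and 7.58, 7.36, 6.95, 7.75 and 7.66 in GMP leukemia. Healthy DN2 had 5.70 and 5.51, and healthy GMP 6.73 and 6.64. DN2-labelled arrays lay below all LSK and GMP leukemia arrays, with a gap to LSK smaller than the spread within either group. The DN2-labelled minus GMP leukemia difference of Il15ra was −1.61 ± 0.25 (SE, limma adjusted p = 9.6e-05), and −1.36 ± 0.35 at its other probe set. Its r over the 17 arrays was 0.844 with Csf3r and −0.554 with Il2rb. Without LSK array 2 its difference between DN2-labelled and LSK leukemia, −0.997 ± 0.283 (SE, limma adjusted p = 0.00973), lost the call (adjusted p = 0.0753), as it did without LSK arrays 2 and 3 (adjusted p = 0.148).

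Counted by comparison, 6 of the 7 genes were called between DN2-labelled and GMP leukemia, 1 higher and 5 lower, where 39.8% of all genes tested were called, 21% higher and 18.8% lower. Between DN2-labelled and LSK leukemia the same 6 were called, 1 higher and 5 lower, against 47.4% of all genes, 28.3% higher and 19.1% lower. Those comparisons share the DN2-labelled arrays and are not independent. Between LSK and GMP leukemia 2 were called higher, Csf1r and Il2rb, against 26.7% of all genes, 10.3% higher and 16.5% lower. The median difference of all genes tested was 0.11 for DN2-labelled minus LSK leukemia and −0.12 for GMP leukemia minus healthy GMP, and within 0.1 of zero in the other comparisons.

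All 3 measured CSF receptors fell in DN2-labelled leukemia relative to LSK leukemia. The log2 differences were −6.21 ± 0.60 for Csf2rb, −5.71 ± 0.65 for Csf3r, −4.74 ± 0.44 for Csf1r, −4.54 ± 0.71 for Il6ra and 4.44 ± 0.17 for Il2rb (SE, limma adjusted p between 6.62e-11 and 0.000139). Without LSK arrays 2 and 3, the DN2-labelled minus LSK difference of Csf3r was −3.59 ± 0.67 (adjusted p = 0.00185), that of Il6ra −2.97 ± 0.98 (adjusted p = 0.0403) and that of Il2rb 4.44 ± 0.26 (adjusted p = 9.61e-08). Here too the spread came from the other groups, since 1 LSK array was left. Csf3r was the least even gene within LSK leukemia, since its first array had 8.47 and the other 2 had 11.47 and 11.81.

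**Figure D2:**
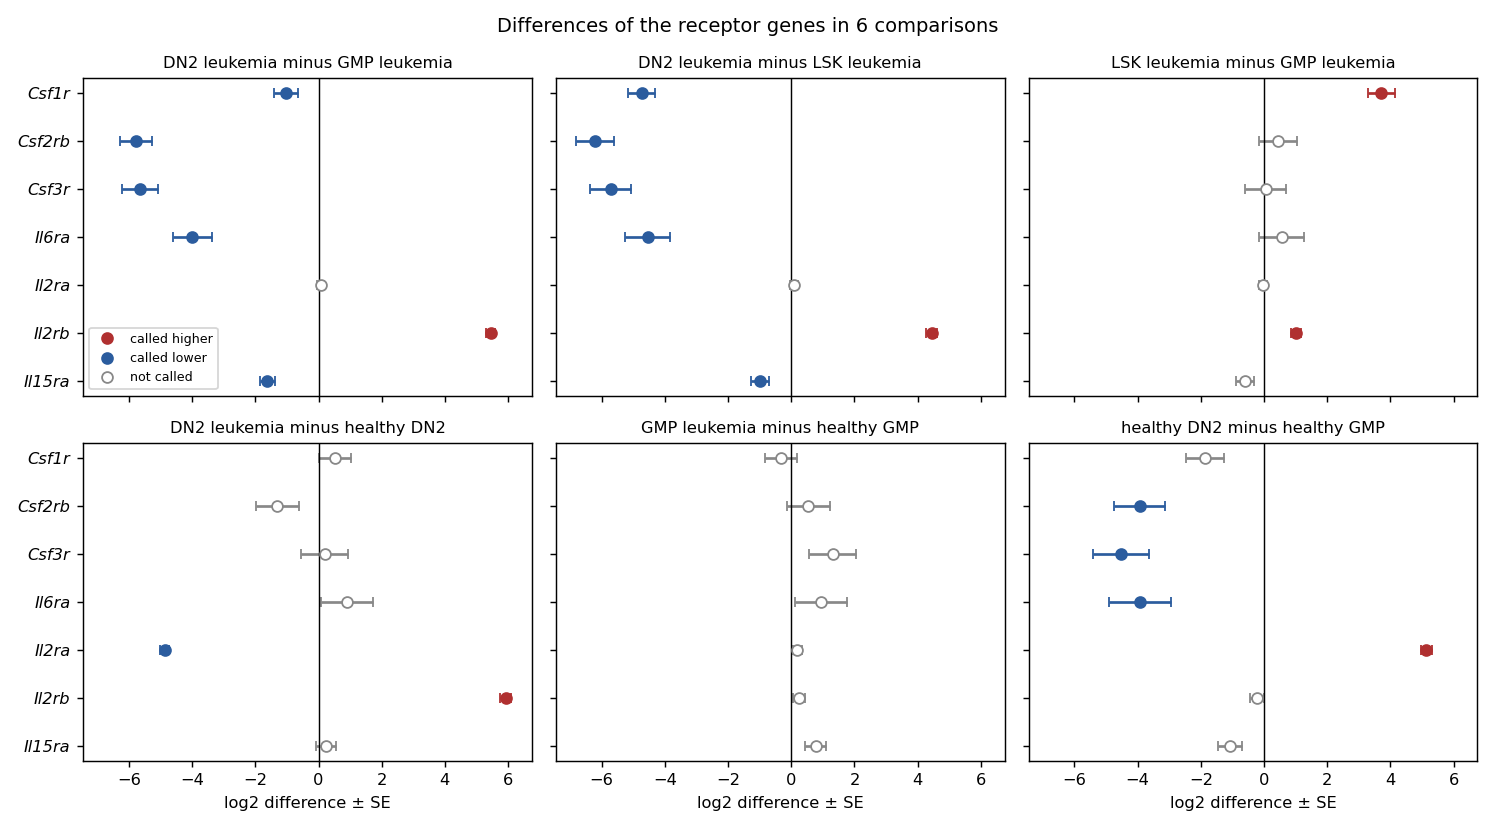
Each panel shows 1 comparison, with the log2 difference ± SE on the horizontal axis and the 7 receptor genes down the page. Red marks genes called higher, blue genes called lower and open circles genes not called. Il2rb is the only gene called higher in both DN2-labelled against GMP and DN2-labelled against LSK leukemia.

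DN2-labelled and GMP leukemia were each set against the healthy progenitor they are named for, and no healthy LSK arrays were analysed here. The leukemia arrays are labelled as spleen cells of irradiated recipients, and the healthy arrays as progenitors of thymus or marrow. Leukemia therefore cannot be told apart from tissue, sort or recipient treatment in these comparisons or in the difference between them. In DN2-labelled leukemia against healthy DN2, 2 genes were called, Il2rb higher and Il2ra lower, where 23.2% of all genes were called, 9.48% higher and 13.7% lower. The Il2ra call rests on its high level in healthy DN2, which follows from how DN2 cells are usually defined. Csf2rb differed by −1.30 ± 0.68 (SE, limma adjusted p = 0.201), and without the first DN2-labelled array it was called, at −1.94 (adjusted p = 0.000514). In GMP leukemia against healthy GMP, limma called 0 of the 7 genes, where 21.2% of all genes were called, 8.08% higher and 13.1% lower. Of these, 1 gene had an unadjusted p under 0.05, Il15ra, with a difference of 0.77 ± 0.32 (SE, limma adjusted p = 0.102). The GMP leukemia minus healthy GMP difference was 1.32 ± 0.74 for Csf3r (SE, limma adjusted p = 0.227) and 0.54 ± 0.68 for Csf2rb (adjusted p = 0.627).

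Between the healthy progenitors, 4 genes were called, Il2ra higher and Csf2rb, Csf3r and Il6ra lower in DN2 than in GMP, where 11.2% of all genes were called, 5.78% higher and 5.42% lower. The healthy DN2 minus healthy GMP difference was 5.13 ± 0.18 for Il2ra, −4.53 ± 0.89 for Csf3r, −3.94 ± 0.82 for Csf2rb and −3.94 ± 0.98 for Il6ra (SE, limma adjusted p between 4.76e-11 and 0.0161). Il6ra lost its call when any 1 of the 4 healthy arrays was left out (adjusted p between 0.0758 and 0.117), and Csf2rb without the second healthy DN2 array (adjusted p = 0.0517), which left 2 genes called. In these settings 1 healthy group has 1 array, whose spread is taken from the other groups. The difference of the leukemia against healthy changes, that for DN2 minus that for GMP, was called for 2 genes, where 12.7% of all genes were called, 6.39% higher and 6.28% lower. It was −5.06 ± 0.21 for Il2ra (SE, limma adjusted p = 7.43e-10) and 5.68 ± 0.27 for Il2rb (adjusted p = 2.09e-09). The same difference for Csf2rb was −1.84 ± 0.97 (adjusted p = 0.252) and, without the first DN2-labelled array, −2.47 (adjusted p = 0.0018). The calls of Il2ra between healthy progenitors and in the difference of the changes rest on its level in healthy DN2. That level follows from how DN2 cells are usually defined.

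The order of the groups differed by gene. For Csf3r and Il6ra the group means ran LSK leukemia, GMP leukemia, healthy GMP, DN2-labelled leukemia and healthy DN2, from highest to lowest. Healthy GMP was apart from DN2-labelled leukemia for both. LSK leukemia overlapped GMP leukemia for both genes, and DN2-labelled leukemia overlapped healthy DN2. The LSK minus GMP leukemia difference of Csf3r was 0.05 ± 0.65 (SE, limma adjusted p = 0.965). For Csf2rb the last places were reversed, with healthy DN2 above DN2-labelled leukemia and overlapping it. For Csf1r healthy GMP came second and overlapped GMP leukemia. For Il2rb DN2-labelled leukemia came first and LSK leukemia second, each apart from the next group, and for Il15ra GMP leukemia came first and overlapped LSK leukemia.

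The mean of Csf1r, Csf2rb and Csf3r per array was 4.76 ± 0.86 in DN2-labelled leukemia (SD, n = 5), 10.32 ± 1.03 in LSK leukemia (SD, n = 3), 8.92 ± 0.31 in GMP leukemia (SD, n = 5), 4.96 ± 0.15 in healthy DN2 (SD, n = 2) and 8.41 ± 0.01 in healthy GMP (SD, n = 2). This CSF mean was lower in every DN2-labelled array than in any LSK, GMP leukemia or healthy GMP array, 6.26 at most against 8.40 at least. The mean of Il2ra, Il2rb and Il15ra was 6.31 ± 0.18 in DN2-labelled leukemia (SD, n = 5), 5.13 ± 0.18 in LSK leukemia (SD, n = 3), 5.00 ± 0.11 in GMP leukemia (SD, n = 5), 5.88 ± 0.07 in healthy DN2 (SD, n = 2) and 4.60 ± 0.09 in healthy GMP (SD, n = 2). It averages chains that differed in direction: in DN2-labelled leukemia relative to healthy DN2, Il2rb rose and Il2ra fell.

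**Figure D3:**
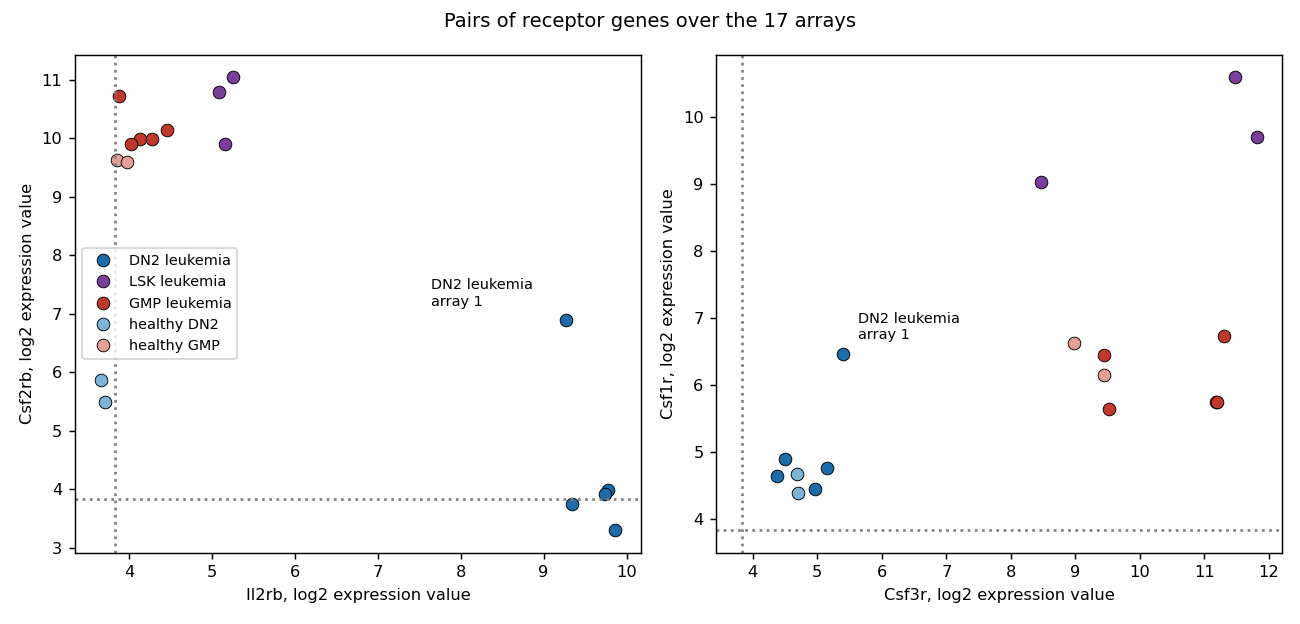
Each point is 1 of the 17 arrays, coloured by group, with Csf2rb against Il2rb on the left and Csf1r against Csf3r on the right, all axes in log2 expression values and dotted lines at the median of all values. DN2-labelled arrays lie alone at high Il2rb, and the first of them has the highest Csf2rb and Csf1r of its group.

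The first DN2-labelled array had the highest Csf1r, Csf2rb, Csf3r and Il6ra of its group. Its monocyte and macrophage marker mean, over 7 of 8 listed genes, was 8.53, against 4.70 to 6.57 in the other DN2-labelled arrays. The same mean was 9.14 to 11.24 in LSK leukemia, 8.69 to 9.07 in GMP leukemia, 4.91 to 5.01 in healthy DN2 and 7.40 to 7.74 in healthy GMP. These markers moved with the CSF receptors in the first DN2-labelled array, and their part in its values was not tested. Its dendritic cell marker mean was also the highest of its group, 7.76 against 3.51 to 6.22. DN2-labelled array 3 had the next highest monocyte and macrophage mean, 6.57, and a Csf3r of 5.15. But its Csf2rb was 3.98, and its Il6ra of 3.11 was the lowest of the group. With DN2-labelled arrays 1 and 3 left out, the DN2-labelled minus GMP leukemia difference was −6.49 ± 0.27 for Csf2rb, −5.92 ± 0.68 for Csf3r, −4.16 ± 0.59 for Il6ra and 5.50 ± 0.16 for Il2rb (SE). The mean of the 8 neutrophil markers was 3.62 to 5.37 in DN2-labelled leukemia, 11.66 to 13.33 in LSK leukemia and 12.31 to 13.21 in GMP leukemia, against 3.55 to 3.76 in healthy DN2 and 7.54 to 7.67 in healthy GMP. It moved with Csf3r across the leukemia groups, and its part in the Csf3r result was not tested. Within DN2-labelled leukemia, array 5 had the highest neutrophil mean, 5.37, but the lowest Csf3r, 4.38.

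The mean of the 8 NK-cell markers was 7.90 to 11.07 in DN2-labelled leukemia, 5.83 to 7.43 in LSK leukemia and 3.30 to 3.49 in GMP leukemia, against 4.83 to 4.88 in healthy DN2 and 3.86 to 3.91 in healthy GMP. All 8 were called higher in DN2-labelled than in GMP leukemia, as were 21% of all genes tested, with a median difference of 7.18. The mean of the T-cell markers, over 7 of 8 listed genes, was 9.32 to 9.99 in DN2-labelled leukemia, 4.18 to 4.78 in LSK leukemia and 4.07 to 4.30 in GMP leukemia, against 7.06 to 7.15 in healthy DN2 and 3.83 to 3.86 in healthy GMP. Among the leukemias both lists were highest where Il2rb was, and their part in the Il2rb result was not tested. In healthy DN2 the T-cell mean lay above that of healthy GMP, while Il2rb had 3.66 and 3.71 in healthy DN2 and 3.85 and 3.97 in healthy GMP. Within DN2-labelled leukemia Il2rb stayed between 9.27 and 9.87 while the NK mean ran from 7.90 to 11.07.

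By likeness over the 17 arrays, the genes closest to Il2rb were Eomes (r = 0.991), a T-box factor of NK and memory T cells, and Cd2 (r = 0.989), an adhesion receptor of T and NK cells. Eomes was 10.16 to 11.19 in DN2-labelled leukemia, 4.57 to 5.98 in LSK leukemia and 3.19 to 3.52 in GMP leukemia. The closest to Csf3r were Slc40a1 (r = 0.992), the iron exporter ferroportin, and Rhou (r = 0.986). Csf2rb was closest to Mgst1 and Gsr, glutathione enzymes, Csf1r to Irf5 and Pld4, Il6ra to Slc8b1 and Msrb1, Il15ra to Map4k5 and Xkr8, and Il2ra to 1810073O08Rik and Strip2. The CSF mean was closest to Ifngr2 (r = 0.979), followed by Cd300a, Pstpip2, Mefv and Sqor. The IL-2 and IL-15 receptor mean was closest to Zcchc18 (r = 0.956), followed by Thy1, Skap1, Cd247 and Cd3g. These values are descriptions over arrays that share groups.

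Other receptors of myeloid and progenitor cells were compared between DN2-labelled and GMP leukemia. Of 17 tested, 2 were called higher and 7 lower, where 21% of all genes tested were called higher and 18.8% lower. Their median difference was −0.49, against 0.03 for all genes tested. The difference was −5.72 ± 0.53 for Il1r2, a decoy receptor for IL-1, −4.10 ± 0.37 for Ifngr2, a chain of the interferon-gamma receptor, and −3.55 ± 0.55 for Il13ra1, an IL-13 receptor chain (SE, limma adjusted p of at most 0.000118). Il6st, the signalling partner of Il6ra, went the other way, at 4.36 ± 0.35 (SE, limma adjusted p = 1.5e-07). It had a mean of 8.49 in DN2-labelled leukemia and 4.13 in GMP leukemia, against 7.19 in LSK leukemia, 6.76 in healthy DN2 and 6.66 in healthy GMP. LSK leukemia, where Il6ra was high, thus also exceeded GMP leukemia in Il6st, by 3.06 ± 0.41 (SE, limma adjusted p = 0.000142). Among other lymphoid receptors, 7 of 15 tested were called higher and 1 lower, against the same 21% and 18.8% of all genes, with a median of 0.92. Il27ra was 4.76 ± 0.21, Il10ra 3.96 ± 0.45, Il18r1 3.55 ± 0.45 and Tgfbr2 2.11 ± 0.20 higher (SE), with limma adjusted p of at most 1.81e-05. Against LSK leukemia, 4 of the 15 were called higher and 4 lower, with a median of −0.10, where 28.3% of all genes were called higher and 19.1% lower. Il10ra and Tgfbr2 had means of 8.76 and 10.02 in LSK leukemia, against 8.51 and 9.89 in DN2-labelled leukemia. Il27ra and Il18r1 were lower in LSK leukemia, at 4.955 and 7.57, against 9.11 and 11.05.

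**Figure D4:**
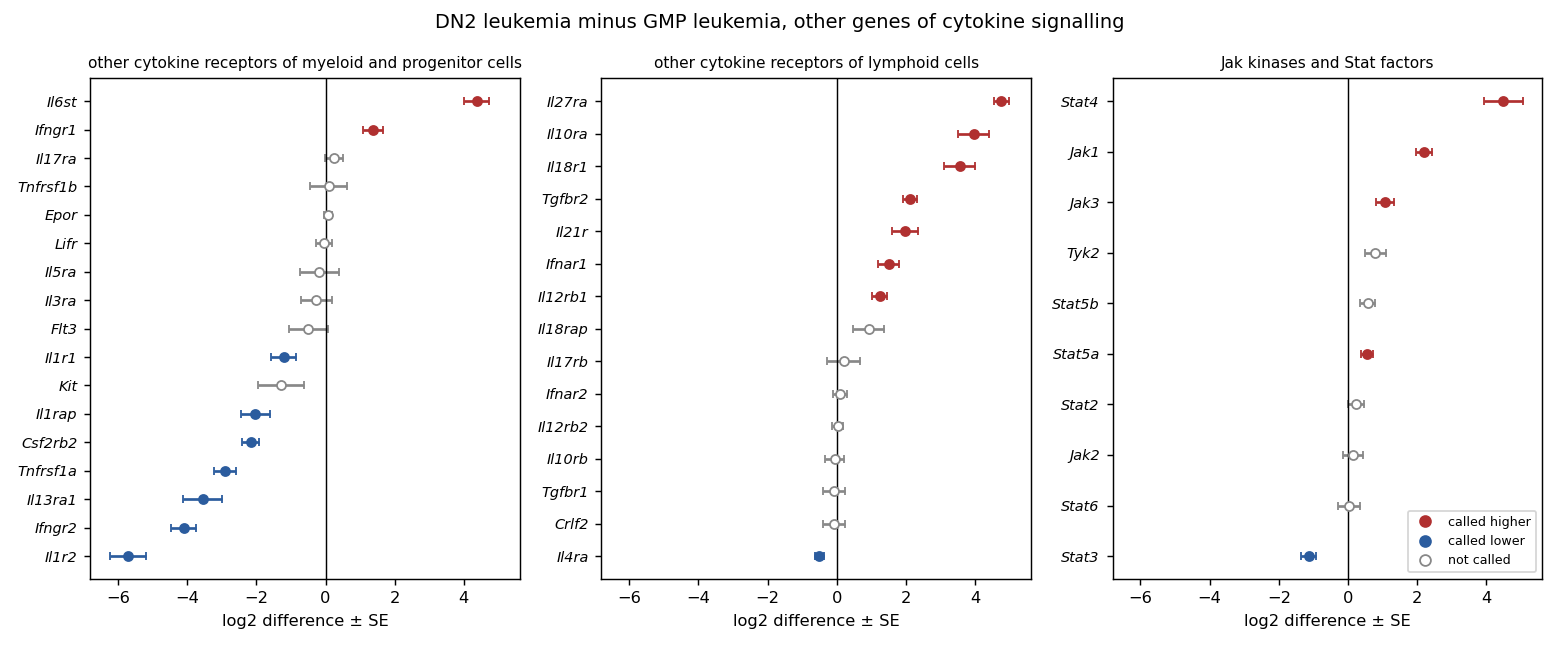
Each panel lists genes of 1 group of the pathway down the page, with the DN2-labelled minus GMP leukemia log2 difference ± SE on the horizontal axis. Red marks genes called higher, blue genes called lower and open circles genes not called. Il6st lies at 4.36 while Il1r2 lies at −5.72.

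Of 14 ligands of these receptors, 5 were tested and 2 were called lower in DN2-labelled than in GMP leukemia, a share near the 39.8% of all genes called in either direction. The difference of Csf1, the ligand of Csf1r, was −3.35 ± 0.36 (SE, limma adjusted p = 3.21e-06), and that of Il15 −2.16 ± 0.75 (adjusted p = 0.0326), a call lost without single arrays (adjusted p up to 0.0819). Among the Jak kinases and Stat factors, 4 of 10 were called higher and 1 lower, where 39.8% of all genes were called. Stat4, which acts below IL-12, was 4.49 ± 0.57 higher and Jak1 2.18 ± 0.23 higher, Jak3, the kinase that pairs with Il2rg, was 1.06 ± 0.25 higher, and the difference of Stat3, which acts below IL-6 and G-CSF receptors, was −1.14 ± 0.22 (SE, limma adjusted p of at most 0.00364). Among Stat5 and Stat3 target genes, 4 of 10 were called higher and 3 lower, among them the cyclin Ccnd2 at 4.18 ± 0.79, the kinase Pim2 at 3.24 ± 0.19 and the repressor Bcl6 at −2.17 ± 0.60 (SE, limma adjusted p of at most 0.00936). The list's median was 0.88, and its calls stand beside 21% of all genes called higher and 18.8% lower. Against LSK leukemia, 3 of the 10 were called higher and 5 lower, with a median of −0.22, where 28.3% of all genes were called higher and 19.1% lower. Ccnd2 ran from 3.72 to 8.95 in GMP leukemia arrays, and its mean was 10.81 in DN2-labelled leukemia and 10.65 in healthy DN2. Among 10 inhibitors, 2 were called in each direction between DN2-labelled and GMP leukemia, a share near the 39.8% of all genes called. Both higher calls were lost under most alternatives, Socs1 (adjusted p = 0.0473) in 20 of 25 and Ptpn2 (adjusted p = 0.0471) in 16 of 26. The difference of Ptpn6, a phosphatase that limits cytokine signals, was −1.45 ± 0.29 (SE, limma adjusted p = 0.00115).

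In DN2-labelled leukemia against healthy DN2, Il2ra fell, as did Kit, the stem cell factor receptor (−6.43 ± 0.88), and Il17rb, an IL-25 receptor chain (−6.41 ± 0.64), while Il18r1 was 5.85 ± 0.60 higher (SE, limma adjusted p of at most 8.34e-05). High Il2ra and Kit in healthy DN2 (means 8.34 and 9.79) follow from how DN2 cells are usually defined, so their falls are no finding. The difference was −3.62 ± 0.69 for Socs2 and −2.92 ± 0.39 for Cish, inhibitors that Stat5 is known to induce, and −1.34 ± 0.23 for Stat5a (SE, limma adjusted p of at most 0.00148). Stat3 was also lower, at −0.98 ± 0.29 (SE, limma adjusted p = 0.0222). Tyk2 and Jak1 went the other way, 1.60 ± 0.40 and 1.13 ± 0.31 higher (SE, limma adjusted p of at most 0.0153). Pim2 was 3.18 ± 0.24 higher (SE, limma adjusted p = 2.01e-07). Stat4 (0.19 ± 0.75) and Ccnd2 (0.16 ± 1.04) were not called (SE, limma adjusted p of at least 0.906). Of the 10 inhibitors tested, Socs2 and Cish were called, a share near the 23.2% of all genes called, and the median difference of the list was −0.19, against 0.01 for all genes tested. Among the other receptors, 2 of 17 myeloid ones were called higher and 2 lower, and 6 of 15 lymphoid ones higher and 2 lower. Across all genes tested, 9.48% were called higher and 13.7% lower.

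In GMP leukemia against healthy GMP, where no receptor of the 7 was called, Il1r2 was 5.23 ± 0.70 higher, Il13ra1 4.06 ± 0.73 higher, and the difference of Kit was −4.86 ± 0.88 (SE, limma adjusted p of at most 0.00141). High Kit in healthy GMP (mean 9.50) follows from how GMP are usually defined, so its fall is no finding. Of the 17 other myeloid receptors, 4 were called higher and 4 lower, where 8.08% of all genes were called higher and 13.1% lower. Their median was 0.20, against −0.12 for all genes tested. The difference of Il6st was −2.53 ± 0.47 (SE, limma adjusted p = 0.00163). Il17rb and Il18r1 moved as they did in DN2-labelled leukemia against healthy DN2, by −3.72 ± 0.64 and 3.58 ± 0.60 (SE, limma adjusted p of at most 0.000936). Stat5a was lower here too, by −0.90 ± 0.23 (SE, limma adjusted p = 0.0133), while Socs2 (−0.51 ± 0.69) and Cish (0.14 ± 0.39) were not called. The difference was −3.95 ± 1.04 for Ccnd2, −3.05 ± 0.75 for Stat4 and 3.44 ± 0.79 for Bcl6 (SE, limma adjusted p of at most 0.0155). Stat3, lower in DN2-labelled leukemia against healthy DN2, was 0.95 ± 0.29 higher here (SE, limma adjusted p = 0.0285). Csf1 was 1.64 ± 0.48 higher (SE, limma adjusted p = 0.0245), a call lost when either healthy GMP array was left out (adjusted p = 0.121 and 0.181).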

How the data were processed

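Expression was measured on Affymetrix mouse arrays from 300 ng of total RNA per array, per the labels' protocols, in 17 samples grouped by their titles. The values deposited by the authors are on the log2 scale, 1 per probe set and array, and were made with RMA and affy, per the submitters' processing notes. The sources used here give neither versions nor whether all arrays were normalized together. RMA shrinks differences near background, and the table holds no detection calls. Precision is limited by the number of arrays.

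The table held 45141 probe sets, of which 104 controls were left out. The platform annotation gave 28898 probe sets 1 symbol and 551 several, and 15588 were not listed. Of the first, 28689 matched RefSeq (GRCm38.p6) by Entrez identifier for current names. The filter on low values kept genes with at least 1 group mean above 3.83, the median of all values. Differences were tested two-sided with limma 3.58.1 (lmFit, eBayes) in R 4.3.3 on all 17 arrays in 1 fit, with Benjamini-Hochberg adjustment over 11629 genes and a call at an adjusted p under 0.05. Single probe sets were tested in a fit over all probe sets. The procedure was tested on simulated data. Descriptions used Python 3.11.15.

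Named genes were all receptor genes, the 4 genes or fewer of each list that differed most (called genes first), and the closest genes by Pearson r. Sort markers, Mycn and Csf2rb2 were named beside a result. The receptor genes and lists were chosen with earlier results of these data known. Prf1 and Kit are on more than 1 list. Alternatives covered the filter, the arrays fitted, a replicate block, the variance model, quantile normalization, the probe set per gene and arrays left out. Promoter sequences are RefSeq's: 7 of the 10 receptor genes had one, 4 of them measured. No array pair held identical values.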

Additional observations from a re-analysis of the deposited data

Results flagged for a closer look

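In 14 groups of values checked (7 genes in the 2 groups of 5 arrays), 3 had 1 array far from the others, where chance gives about 1 in 20. Csf1r was 6.47 in the first DN2-labelled leukemia array, against 4.45 to 4.89 in the other 4. Csf2rb was 6.90 in the same array, against 3.30 to 3.98 in the other 4. Csf2rb was 10.72 in the second GMP leukemia array, against 9.91 to 10.14 in the others. The leukemia minus healthy difference was unlike between DN2 and GMP for Il2ra, by −5.06 ± 0.21 (SE, limma adjusted p = 7.43e-10), and for Il2rb, by 5.68 ± 0.27 (SE, limma adjusted p = 2.09e-09). Leukemia and healthy arrays also differ in tissue and sort, which cannot be told apart from leukemia here. The Il2ra value rests on its mean of 8.34 in healthy DN2, against 3.21 to 3.47 in the other groups. That level follows from how DN2 cells are usually defined and is no finding.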

How the results depend on the processing

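Of 1274 recomputed differences of the receptor genes, 1218 kept their direction and their side of the threshold, 24 lost the call, 13 gained one and 19 changed sign, all of the last uncalled. The number of receptor genes called ran, over leaving out each array in turn, from 5 to 6 for DN2-labelled minus GMP leukemia and for DN2-labelled minus LSK leukemia, 2 to 3 for LSK minus GMP leukemia, for DN2-labelled leukemia minus healthy DN2 and for the difference of the leukemia changes, 0 throughout for GMP leukemia minus healthy GMP and 2 to 5 for healthy DN2 minus healthy GMP. The replicate numbers did not pair the arrays (correlations of same-numbered deviations ran from −0.30 to 0.25), and the replicate block changed 1 call, that of Csf1r between DN2-labelled and GMP leukemia (adjusted p = 0.0846), with 5 receptor genes called in place of 6. Sign changes for LSK minus GMP leukemia were Csf3r with the replicate block (−0.14), without LSK array 2 (−0.39) or 3 (−0.56), without GMP leukemia array 2 (−0.20) or 4 (−0.22) and without LSK arrays 2 and 3 (−2.06), the last setting also turning Csf2rb (−0.25) and Il6ra (−1.02), and Il2ra without LSK array 1 (0.0119). Without single arrays these differences ran from −0.56 to 1.11 for Csf3r and from −0.0559 to 0.0119 for Il2ra. Csf3r (−0.0749) and Il15ra (−0.0718) turned for DN2-labelled leukemia minus healthy DN2 without DN2-labelled arrays 1 and 3. With the probe set of largest variance, Il2ra turned for GMP leukemia minus healthy GMP (−0.0188) and Il2rb for healthy DN2 minus healthy GMP (0.0165). The difference of the leukemia changes of Il6ra, −0.05, ran from −0.53 to 0.30 without single arrays (positive values 0.30, 0.22, 0.21, 0.18, 0.0944 and 0.0023). The causes were not tested. Il6ra lost its call between healthy progenitors without any 1 of the 4 healthy arrays (adjusted p 0.0758 to 0.117), and Csf2rb without healthy DN2 array 2 (0.0517), while Csf1r, with adjusted p 0.0624, gained one in the fit of the compared arrays alone (0.000759). Over all genes, calls moved by more than 1.5 times for healthy DN2 minus healthy GMP (1302, against 5326 with only the compared arrays and 602 to 785 without 1 healthy array), LSK minus GMP leukemia (3108, against 1658 with only the compared arrays, 1889 without LSK array 2 and 1378 without arrays 2 and 3), DN2-labelled minus LSK leukemia (5515, against 3172 without those), DN2-labelled leukemia minus healthy DN2 (2695, against 1236 and 1252 without 1 healthy DN2 array), GMP leukemia minus healthy GMP (2463, against 848 and 889 without 1 healthy GMP array) and the difference of the changes (1473, against 788 to 913). Where 1 array of a group was left, it was assumed to vary like the other groups. Signal near background limits Il2ra outside healthy DN2, and Il2rb in GMP leukemia (mean 4.15) and both healthy groups, where differences are compressed. The same holds for Csf2rb in DN2-labelled arrays 2 to 5 (3.30 to 3.98). It also holds for Il6ra in DN2-labelled arrays 3 and 5 (3.11 and 3.42) and in healthy DN2 (3.84 and 3.38).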
